A study of Mus musculus with 59 samples.

Results

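The Serpin genes are the 63 protein-coding mouse genes whose RefSeq symbol begins with Serpin, of 21774 protein-coding genes in all. They were chosen by name, and a ChIP-seq peak was given to a gene when the nearest protein-coding transcription start site (TSS) to the peak center, within 100 kb, was that gene's. By this rule 319 of 102931 peaks belonged to Serpin genes. Peaks of different lists whose centers lay within 200 bp were joined, which left 116 Serpin sites among 34381 sites within reach of a gene. The farthest of the 116 lay 46899 bp from its TSS. A site therefore stands for 1 place in the genome and is described by the lists that call it.

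The peaks come from chromatin immunoprecipitation of liver from male mice, in 7 lists that each combine 3 animals. BCL6, PPARα and PPARδ were each mapped in C57BL/6 livers of ad libitum fed mice and of mice fasted overnight. BCL6 was also mapped in fed livers of Bcl6 fl/fl mice on the C57BL/6 strain, which carry loxP sites in Bcl6 without Cre and serve as controls for a liver knockout. The age of the animals was not given in the sources used here. Each list holds the position of its peaks and no read count or score, and the 3 replicates were pooled when peaks were first called. Nothing below therefore carries an error between animals, the sequencing depth of each list is unknown, and no test between feeding states was made. Many shares are given with their 95% Wilson interval, a measure of counting error alone that treats neighbouring sites as independent. Whole liver was used, and the lists alone do not assign a peak to hepatocytes or to another liver cell type. For BCL6 the study also had livers that lack Bcl6 in hepatocytes as a background, which are not analysed here.

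Serpins are a family of proteins with a common fold, and most of them inhibit proteases. The protease cuts a bait loop on the serpin's surface, stays covalently attached and is trapped as the loop folds into the serpin's body. Hepatocytes secrete most of the serpins of blood plasma, among them α1-antitrypsin, antithrombin and C1 inhibitor, and some members have lost inhibition and carry hormones instead. The family is divided into clades by sequence, named by the letter after Serpin. Clade A holds secreted plasma proteins and clade B holds intracellular inhibitors, and both were duplicated repeatedly in rodents. BCL6 is a zinc finger repressor, and PPARα and PPARδ are nuclear receptors that bind DNA as partners of RXR.

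Several of the sites discussed below lie in sequence that mice carry in near-identical copies. The α1-antitrypsin genes make the clearest case, and a 120-base block just upstream of their TSSs is shown because the peak calls of the copies differ over it. Each is read in the direction of the gene on the minus strand of chromosome 12 of GRCm38, the assembly of mm10, and the RefSeq promoter windows supplied the letters. The block lay at chr12:103738200-103738319 for Serpina1b, chr12:103863625-103863744 for Serpina1a, chr12:103904962-103905081 for Serpina1c, chr12:103773634-103773753 for Serpina1d and chr12:103956960-103957079 for Serpina1e. Capitals mark bases that differ from the Serpina1b copy.
Serpina1b: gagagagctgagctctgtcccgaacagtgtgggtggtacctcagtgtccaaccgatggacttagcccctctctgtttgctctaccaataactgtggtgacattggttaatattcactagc
Serpina1a: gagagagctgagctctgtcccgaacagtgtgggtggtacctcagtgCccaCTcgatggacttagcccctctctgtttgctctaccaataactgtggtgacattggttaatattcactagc
Serpina1c: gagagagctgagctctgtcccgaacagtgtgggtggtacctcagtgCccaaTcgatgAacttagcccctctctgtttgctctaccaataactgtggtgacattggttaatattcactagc
Serpina1d: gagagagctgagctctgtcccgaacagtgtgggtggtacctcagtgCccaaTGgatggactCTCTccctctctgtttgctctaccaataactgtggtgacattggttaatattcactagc
Serpina1e: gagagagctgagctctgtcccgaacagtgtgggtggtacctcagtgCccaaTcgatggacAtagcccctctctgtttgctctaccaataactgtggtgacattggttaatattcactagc

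Over these 120 bases, Serpina1a, Serpina1c and Serpina1e each differed from Serpina1b at 3 positions, and Serpina1d at 7. A joined site overlapped the block in 4 of the 5 copies. It was called in 5 lists at Serpina1b, in 4 at Serpina1c, in 3 at Serpina1d and in 1 at Serpina1e, and no list called the Serpina1a block. The authors kept only reads with a single place in the genome. All 46 of the 75-base stretches inside the block occurred once in the genome for the copies other than Serpina1a, whereas 21 of 46 did for Serpina1a (45.7%). The part of this in the missing Serpina1a call was not tested. Over the whole called sites, which reach beyond the block, fewer stretches were unique. The shares were 80.4% at Serpina1b, 98.8% at Serpina1c, 88.7% at Serpina1d and 85.9% at Serpina1e. The Serpina1e site (chr12:103957052-103957268) overlapped only one end of the block, with its center at -263 bp from the TSS.

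The sites that hold the recognition letters of the factors are shown next, as the 200 bases around the site center on the plus strand. The BCL6 element was searched as TTCCTAGAA with at most 1 mismatch, and the PPAR element, called DR1, as a pair of AGGTCA half-sites in direct repeat with a 1-base spacer and at most 2 mismatches, on both strands. The letters of the BCL6 element overlap with those that STAT factors bind. DR1 is not particular to PPARs either, and the study cites a report that the receptor FXR competes with PPARα for such sites. Only 2 Serpin sites held an exact BCL6 element, 1 upstream of Serpina5 at chr12:104076749-104076948 and 1 in the promoter of Serpina3f at chr12:104214314-104214513. Capitals mark the element.
Serpina5: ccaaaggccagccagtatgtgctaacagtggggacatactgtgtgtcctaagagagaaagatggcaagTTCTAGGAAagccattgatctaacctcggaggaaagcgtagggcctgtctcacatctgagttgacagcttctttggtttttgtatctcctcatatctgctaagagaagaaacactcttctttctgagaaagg
Serpina3f: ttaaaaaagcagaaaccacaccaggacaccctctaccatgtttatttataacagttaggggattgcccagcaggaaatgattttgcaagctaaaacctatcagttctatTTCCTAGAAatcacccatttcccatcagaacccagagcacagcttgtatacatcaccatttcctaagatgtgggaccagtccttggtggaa

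The Serpina5 site lay at -24265 bp from the TSS and was called for BCL6 and PPARα in both feeding states and for PPARδ in the fed state. Its element lay inside all 5 of these peaks, 29 bp from the center of the fasted BCL6 peak and 105 bp from that of the fed BCL6 peak, whose own 200-base window does not hold it. The Serpina3f site lay at -131 bp and was called for BCL6 and PPARα in the fasted state and for BCL6 in Bcl6 fl/fl livers, and in no fed C57BL/6 list. Serpina5 encodes protein C inhibitor, and Serpina3f is a mouse antichymotrypsin copy. Like the DR1 sites shown next, the Serpina3f site was chosen for display after the sites were seen. The DR1 sites are in intron 1 of the antithrombin gene Serpinc1 at chr1:160987288-160987487 and beyond the end of Serpinf1 at chr11:75402702-75402901, and both have 2 mismatches.
Serpinc1: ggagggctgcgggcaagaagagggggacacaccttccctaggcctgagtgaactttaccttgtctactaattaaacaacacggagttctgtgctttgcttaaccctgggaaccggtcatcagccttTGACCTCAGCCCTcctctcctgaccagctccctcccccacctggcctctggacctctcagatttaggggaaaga
Serpinf1: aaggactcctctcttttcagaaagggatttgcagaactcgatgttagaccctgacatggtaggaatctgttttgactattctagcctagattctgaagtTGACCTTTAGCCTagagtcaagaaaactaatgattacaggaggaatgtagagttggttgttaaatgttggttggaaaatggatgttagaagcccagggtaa

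The Serpinf1 site, 19822 bp downstream of the TSS, was called for PPARα and PPARδ in both feeding states and for BCL6 in no list. Only 2 Serpin sites were called for PPARδ in both states, and the other one, 10485 bp downstream of the Serpina3f TSS, was called for BCL6 and PPARα in the fasted state alone. The last pair of sequences represents the 7 Serpin sites called in 6 lists, the most for any Serpin site. They are the sites of Serpina1e at chr12:103961798-103961997, which holds a BCL6 element with 1 mismatch in capitals, and of Serpina6 at chr12:103659280-103659479, which holds neither element.
Serpina1e: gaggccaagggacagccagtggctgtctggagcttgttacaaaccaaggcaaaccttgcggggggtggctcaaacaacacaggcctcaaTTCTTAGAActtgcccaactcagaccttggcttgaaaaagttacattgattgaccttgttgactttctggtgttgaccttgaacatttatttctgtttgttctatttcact
Serpina6: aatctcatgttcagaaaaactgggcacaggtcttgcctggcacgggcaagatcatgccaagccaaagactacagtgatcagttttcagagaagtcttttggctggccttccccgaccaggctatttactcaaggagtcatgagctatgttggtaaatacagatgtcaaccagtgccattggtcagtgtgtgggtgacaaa

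All 7 sites called in 6 lists were missing from the same list, that of PPARδ in the fasted state. That list was the smallest of all, with 2399 peaks. The 7 sites lay near Serpina1e, Serpina3a, Serpina3m, Serpina6, Serpinb1a, Serpinb6b and Serping1. No Serpin site was called in all 7 lists, against 548 of the 34381 sites near any gene (1.59%). At the other end, 42 Serpin sites (36.2%) were called in 1 list, against 40.1% of all sites.

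Across the family, 32 of the 63 genes had a peak in at least 1 list (50.8%, interval 38.8 to 62.7), and 50.0% of all protein-coding genes did. The share of bound members was thus close to that of all genes, while the clades differed from each other. Of the 24 clade A genes 21 had a site, with 86 sites in all and up to 9 at 1 gene. Of the 28 clade B genes 5 had a site, with 7 sites in all. The 11 genes of the other clades held 23 sites, among them those of Serpinc1, Serpind1, Serpinf1, Serpinf2 and Serping1. These counts depend on how much sequence lies nearest to each gene. Per Mb of such sequence, clade A had 91.1 sites, clade B 3.53 and all protein-coding genes 22.1. The other clades, of few genes each, ranged from 0 in clades H and I to 155 in clade G. Clade F had 114, clade C 77.9 and clade D 46.3, so clade A was not the densest. Per gene, the median was 3 sites in clade A and 0 both in clade B and among all protein-coding genes. The part of gene spacing in the densities per Mb was not tested. No test of the clade difference was made, since the members of a clade are neighbours and copies of each other.

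The copies also differ in how much of their sequence a 75-base read can place. In the sequence nearest to clade B genes 82.7% of 75-base stretches occurred once in the genome, compared with 88.6% for clade A and 89.7% for a sample of positions near other genes. Counted per Mb of unique sequence, the density was 103 sites for clade A, 4.26 for clade B and 24.6 for all genes, so the order of the 3 was as before. Exact copies alone were counted, and reads aligned with mismatches could lose more places. The plot of sites against unique sequence shows clade B genes without a site over the whole range, from Serpinb9h, where 30.8% was unique, to Serpinb9, where 99.5% was. It also shows Serpina1d with 4 sites at 62.2% and Serpina1c with 5 at 65.9%.

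**Figure D1:**
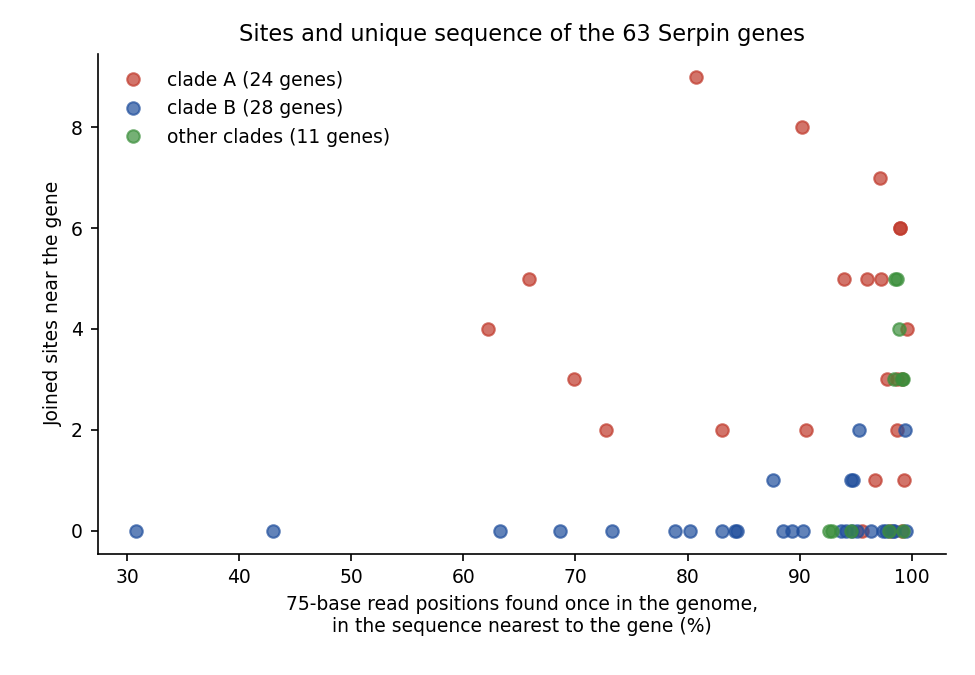
Joined sites near each of the 63 Serpin genes, plotted against the percentage of 75-base read positions in the sequence nearest to the gene that occur once in the genome. Each point is 1 gene, colored by clade. Clade B genes lie at 0 to 2 sites at every level of unique sequence, and clade A genes reach 9.

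By list, BCL6 had 52 Serpin peaks in fed C57BL/6 livers, 27 after fasting, and 56 in fed Bcl6 fl/fl livers. PPARα had 66 in fed and 82 in fasted livers. PPARδ had 30 in fed and 6 in fasted livers. The grid of peaks by gene and list shows these counts for 31 of the 32 genes with a peak. In the fed state 21 Serpin genes had a BCL6 peak (33.3%, against 25.9% of all genes), 28 had a PPARα peak (44.4%, against 32.0%) and 19 had a PPARδ peak (30.2%, against 17.0%). In the fasted state the numbers were 17 for BCL6 (17 of 63, against 19.0%), 29 for PPARα (46.0%, against 43.5%) and 5 for PPARδ (7.94%, against 7.70%). In Bcl6 fl/fl livers 23 had a BCL6 peak (36.5%, against 28.6%). The interval of the Serpin share reached from below to above the share of all genes in each list except PPARα fed, where it ran from 32.8 to 56.7, and PPARδ fed, where it ran from 20.2 to 42.4.

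**Figure D2:**
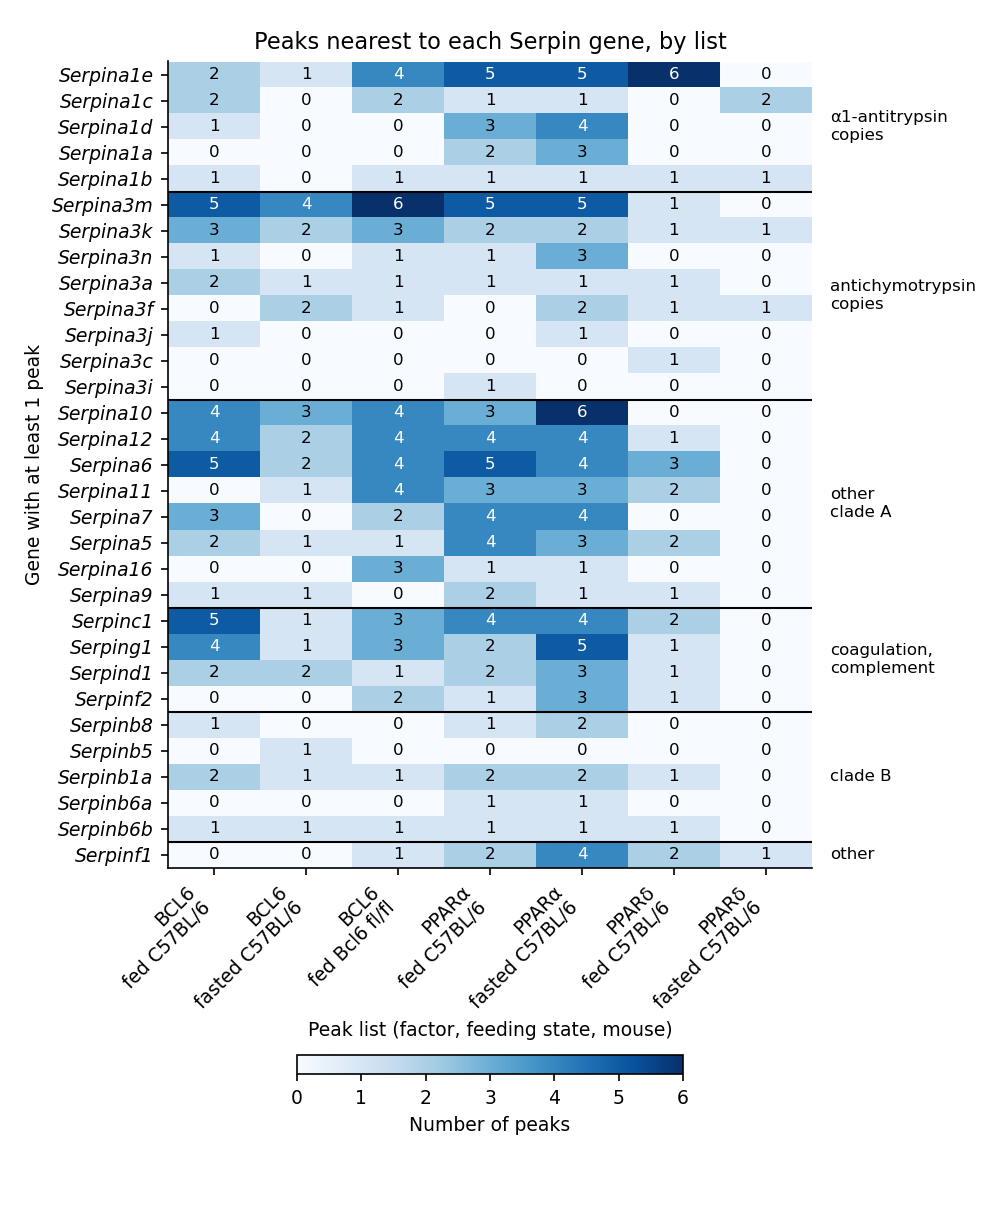
Number of peaks nearest to each of 31 Serpin genes that had any, in each of the 7 lists. Rows are genes grouped by role, columns are lists, and darker cells hold more peaks. The column of PPARδ in the fasted state holds 6 peaks at 5 genes, whereas Serpina3m has 1 to 6 peaks in each of the other lists.

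All clade A genes but Serpina7 (chrX:139079249-139085236) lie in 1 cluster, from Serpina10 (chr12:103616675-103631490) to Serpina3n (chr12:104406646-104414334). The α1-antitrypsin copies there, named for the inhibitor that protects lung from neutrophil elastase, had 23 sites at 5 of 6 genes. Serpina1e had 9 sites, more than any other Serpin gene. Its list counts were 2 peaks for BCL6 fed, 1 for BCL6 fasted, 4 for BCL6 in Bcl6 fl/fl, 5 for PPARα fed, 5 for PPARα fasted, 6 for PPARδ fed and 0 for PPARδ fasted. Its 6 peaks for PPARδ fed were the most of any Serpin gene in that list. Upstream, 4 sites from -5000 to -10063 bp were called for PPARα in both states, and the one at -5000 bp was the only one called for BCL6 in the fasted state. Serpina1c had 5 sites, with 2 peaks for BCL6 fed, 2 for BCL6 in Bcl6 fl/fl, 1 for PPARα fed, 1 for PPARα fasted and 2 for PPARδ fasted, and none for BCL6 fasted or PPARδ fed. Serpina1d had 4 sites, Serpina1a 3, all for PPARα alone, and Serpina1b 2. Serpina1f had none.

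Sites of different copies fell at matching distances from their TSSs. Beyond the end of the genes, PPARδ alone was called at Serpina1b (10884 bp), Serpina1c (10858 bp) and Serpina1e (10882 bp). The first 2 calls were from fasted livers and the third was from fed livers. The 200-base windows around these sites were 93.0 to 93.9% identical over 181 to 185 aligned bases. In intron 1, Serpina1c (1556 bp) was called for PPARδ in fasted livers, and Serpina1e (1525 bp) for PPARδ in fed and PPARα in fasted livers, with 193 of 198 aligned bases the same. In these windows 59.9% and 64.0% of overlapping 75-base stretches were unique. A further pair, 12184 bp from Serpina1c and 12227 bp from Serpina1e, was called for BCL6 in Bcl6 fl/fl livers and in no other list. Its windows shared 170 of 182 aligned bases, and each held a BCL6 element with 1 mismatch. At the PPARδ places, a call from fasted livers at one copy thus had its counterpart in a call from fed livers at another. In the windows beyond the genes 81.4% (Serpina1b), 100% (Serpina1c) and 98.9% (Serpina1e) of the stretches were unique, and the part of shared sequence in these calls was not tested. These pairs were chosen after the sites were seen.

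**Figure D3:**
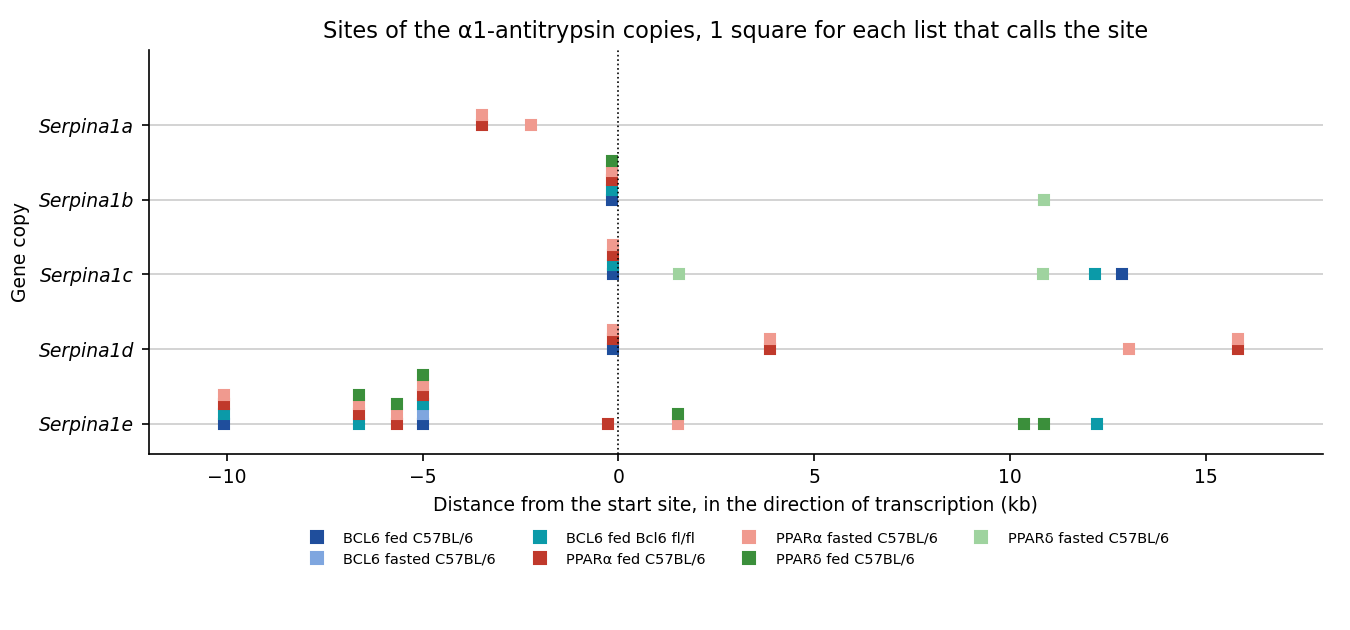
Sites of the 5 bound α1-antitrypsin copies by distance from each gene's TSS in kb, with 1 colored square for each list that calls the site. Squares stack at the promoters of Serpina1b, Serpina1c and Serpina1d, and the PPARδ calls beyond 10 kb line up in Serpina1b, Serpina1c and Serpina1e. A Serpina1a site 39585 bp downstream lies outside the axis.

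The antichymotrypsin copies, at the other end of the same cluster and expanded in rodents from a single gene for an inhibitor of chymotrypsin-like proteases, had 23 sites at 8 of 10 genes. Serpina3m had 7 sites, with 5 peaks for BCL6 fed, 4 for BCL6 fasted, 6 for BCL6 in Bcl6 fl/fl, 5 for PPARα fed, 5 for PPARα fasted, 1 for PPARδ fed and 0 for PPARδ fasted. Its 4 peaks for BCL6 fasted were the most of any Serpin gene in that list. Serpina3k had 5 sites, with 3 peaks for BCL6 fed, 2 for BCL6 fasted, 3 for BCL6 in Bcl6 fl/fl, 2 for PPARα fed, 2 for PPARα fasted, 1 for PPARδ fed and 1 for PPARδ fasted. It was the only one of the 12 most bound Serpin genes with a peak in all 7 lists. The promoter sites of Serpina3k (-130 bp) and Serpina3m (-90 bp) were called in the same 5 lists, those of BCL6 and PPARα, and shared 148 of 160 aligned bases. The next sites upstream, at -1432 and -1047 bp, shared 174 of 185 aligned bases and the same 5 lists, to which Serpina3m added PPARδ fed. Here the copies carried matching calls. The remaining members had few sites, namely 3 at Serpina3n, an acute-phase member, 2 each at Serpina3a, Serpina3f and Serpina3j, and 1 each at Serpina3c and Serpina3i. Serpina3b and Serpina3g had none.

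The other clade A genes were all bound, with 40 sites at 8 genes, or 124 per Mb. Several of them carry hormones or act on coagulation factors. Serpina10, which inhibits factor Xa together with protein Z, had 8 sites with 4 peaks for BCL6 fed, 3 for BCL6 fasted, 4 for BCL6 in Bcl6 fl/fl, 3 for PPARα fed, 6 for PPARα fasted and none for PPARδ. Of its 6 PPARα fasted peaks, 4 were called in no other list and lay within the gene or downstream of it, between 1679 and 22406 bp from the TSS. Its site at 32829 bp went the other way, with BCL6 in both states and PPARα in the fed state only. Serpina12, the adipokine vaspin, had 6 sites, with 4 peaks for BCL6 fed, 2 for BCL6 fasted, 4 for BCL6 in Bcl6 fl/fl, 4 for PPARα fed, 4 for PPARα fasted, 1 for PPARδ fed and 0 for PPARδ fasted. Its site at -23204 bp had the same combination as the far Serpina10 site, and these were the only 2 Serpin sites that did.

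Serpina6 encodes corticosteroid-binding globulin, the plasma carrier of glucocorticoids. It had 6 sites from -8272 to 1446 bp, with 5 peaks for BCL6 fed, 2 for BCL6 fasted, 4 for BCL6 in Bcl6 fl/fl, 5 for PPARα fed, 4 for PPARα fasted, 3 for PPARδ fed and 0 for PPARδ fasted. BCL6 in the fed state was thus called at every Serpina6 site but one, the site in intron 1 that held DR1 matches and was called for PPARα alone. Serpina7, the carrier thyroxine-binding globulin on the X chromosome, had 5 sites, with 3 peaks for BCL6 fed, 0 for BCL6 fasted, 2 for BCL6 in Bcl6 fl/fl, 4 for PPARα fed, 4 for PPARα fasted and none for PPARδ. All its BCL6 sites also held PPARα. Serpina11 had 5 sites, with 0 peaks for BCL6 fed, 1 for BCL6 fasted, 4 for BCL6 in Bcl6 fl/fl, 3 for PPARα fed, 3 for PPARα fasted, 2 for PPARδ fed and 0 for PPARδ fasted. Its BCL6 calls therefore differed between the 2 fed lists. Serpina5 had 4 sites, with 2 peaks for BCL6 fed, 1 for BCL6 fasted, 1 for BCL6 in Bcl6 fl/fl, 4 for PPARα fed, 3 for PPARα fasted, 2 for PPARδ fed and 0 for PPARδ fasted. Serpina9 and Serpina16 had 3 sites each.

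**Figure D4:**
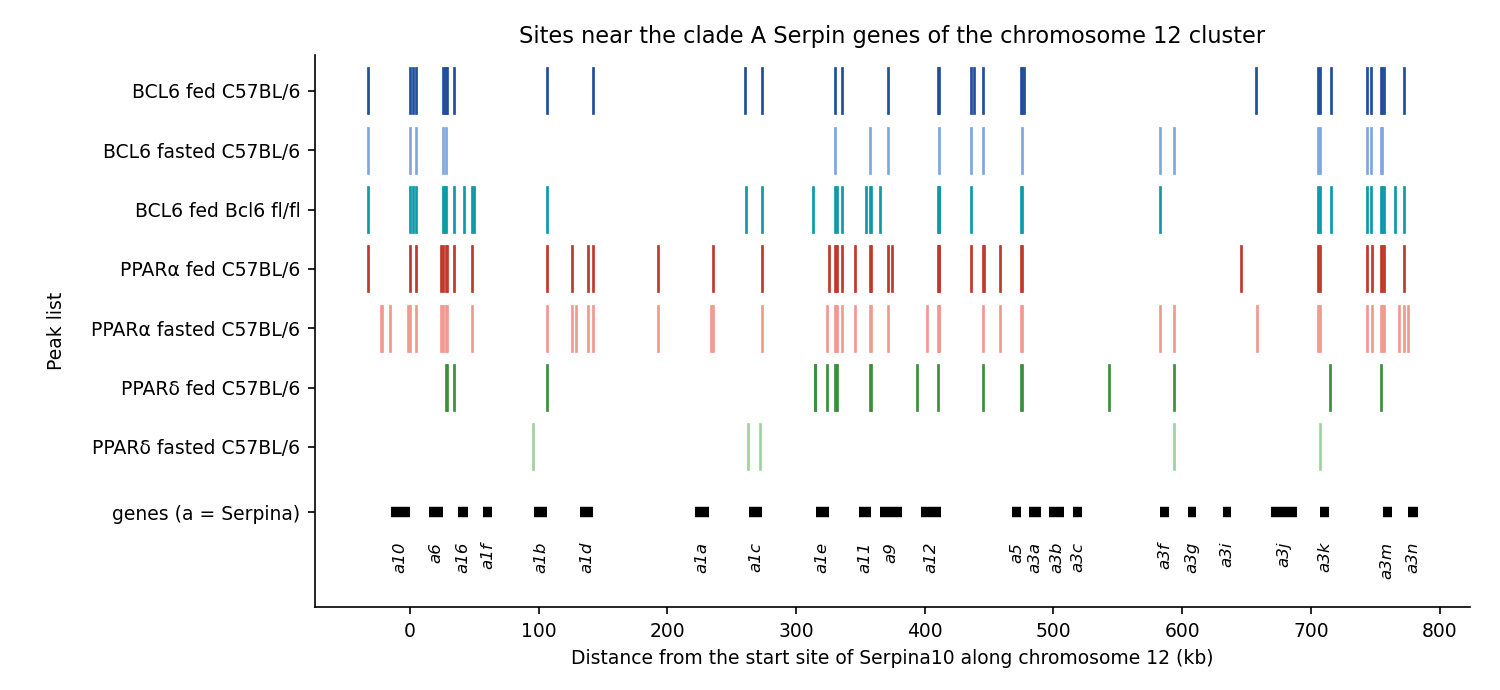
Sites near the 23 clade A Serpin genes of chromosome 12 in each of the 7 lists, by distance in kb from the Serpina10 TSS. Each tick is a site called in that list and black bars are genes. Ticks of BCL6 and PPARα crowd around Serpina10, Serpina6, Serpina1e, Serpina12, Serpina5, Serpina3k and Serpina3m, and the PPARδ fasted row holds 5 ticks.

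The 5 serpins of coagulation, fibrinolysis and complement were all bound, with 19 sites. Serpinc1 (chr1:160978583-161002543), antithrombin, the main inhibitor of thrombin and factor Xa, had 5 sites, with 5 peaks for BCL6 fed, 1 for BCL6 fasted, 3 for BCL6 in Bcl6 fl/fl, 4 for PPARα fed, 4 for PPARα fasted, 2 for PPARδ fed and 0 for PPARδ fasted. BCL6 was called at every Serpinc1 site in fed livers and at 1, in intron 1 at 2152 bp, in fasted livers. Serping1 (chr2:84765360-84775444), the C1 inhibitor that restrains complement C1r and C1s and plasma kallikrein, had 5 sites, with 4 peaks for BCL6 fed, 1 for BCL6 fasted, 3 for BCL6 in Bcl6 fl/fl, 2 for PPARα fed, 5 for PPARα fasted, 1 for PPARδ fed and 0 for PPARδ fasted. Its BCL6 peaks went from 4 to 1 between fed and fasted lists while its PPARα peaks went from 2 to 5. Serpind1, heparin cofactor II, had 3 sites, and Serpinf2, which inhibits plasmin, had 3. Serpinf2 had no BCL6 peak in either C57BL/6 list and had 2 in Bcl6 fl/fl livers.

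Clade B was sparsely bound on both chromosomes, with 3 sites at 2 of 12 genes on chromosome 1 and 4 sites at 3 of 16 genes on chromosome 13. Serpinb1a, a cytosolic inhibitor of neutrophil proteases, and Serpinb8 had 2 sites each. Serpinb5 (maspin), Serpinb6a and Serpinb6b had 1 each. The Serpinb6b site, in intron 2, held a DR1 match and was called in 6 lists. Of the 6 genes placed in no other group, Serpinf1, which encodes the non-inhibitory factor PEDF, had 4 sites and the rest none. The members without a peak in any list were Serpina1f, Serpina3b, Serpina3g, Serpinb10, Serpinb11, Serpinb12, Serpinb13, Serpinb1b, Serpinb1c, Serpinb2, Serpinb3a, Serpinb3b, Serpinb3c, Serpinb3d, Serpinb6c, Serpinb6d, Serpinb6e, Serpinb7, Serpinb9, Serpinb9b, Serpinb9c, Serpinb9d, Serpinb9e, Serpinb9f, Serpinb9g, Serpinb9h, Serpine2, Serpine3, Serpinh1, Serpini1 and Serpini2.

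The comparison of feeding states asks how binding shifted between a fed and a fasted liver. From fed to fasted lists the number of Serpin peaks went from 52 to 27 for BCL6, a change of -48.1%, beside -36.3% near all genes. It went from 66 to 82 for PPARα, a change of 24.2%, beside 40.1%. It went from 30 to 6 for PPARδ, a change of -80.0%, beside -67.4%. For BCL6, 18 Serpin genes had fewer peaks in the fasted list and 3 had more. For PPARα, 4 had fewer and 12 had more. For PPARδ, 16 had fewer and 1 had more, Serpina1c. The same tally over all protein-coding genes was not made, so these gene counts have no background beside them. The direction of each change was that of the whole list, and depth differences between fed and fasted libraries cannot be told apart from it.

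Site by site, 31 of the 58 Serpin BCL6 sites were called in fed livers only (53.4%, interval 40.8 to 65.7), beside 43.7% of all BCL6 sites within reach of a gene. Both states called another 21, and 6 were found in the fasted list alone (10.3%, beside 11.7%). Of the 90 PPARα sites, 8 were called in fed livers only (8.89%, interval 4.57 to 16.6, beside 12.0%), 58 in both and 24 in fasted livers only (26.7%, interval 18.6 to 36.6, beside 37.1%). The share called in both states was 64.4% (interval 54.2 to 73.6) near Serpin genes and 50.9% near all genes. Of the 34 PPARδ sites, 28 were called in fed livers only (82.4%, interval 66.5 to 91.7, beside 70.7%), 2 in both and 4 in fasted livers only (11.8%, beside 9.96%). For PPARα the Serpin intervals of the shares called in both states and in fasted livers alone did not include the share near all genes, and for BCL6 and PPARδ only that of the PPARδ sites called in both states (5.88%, interval 1.63 to 19.1, beside 19.4%) did not. All 8 Serpin PPARα sites called only in the fed state, and all 4 PPARδ sites called only in the fasted state, lay near clade A genes, which held 62 of the 90 PPARα and 25 of the 34 PPARδ sites. The single most frequent pattern was a site called for PPARα in fasted livers and in no other list, with 15 sites. Its share over all sites was not counted. PPARα without BCL6 or PPARδ, in either state, was called at 35 of the 109 Serpin sites of C57BL/6 livers (32.1%, interval 24.1 to 41.4). Among all sites this wider class was more frequent, at 47.4%.

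**Figure D5:**
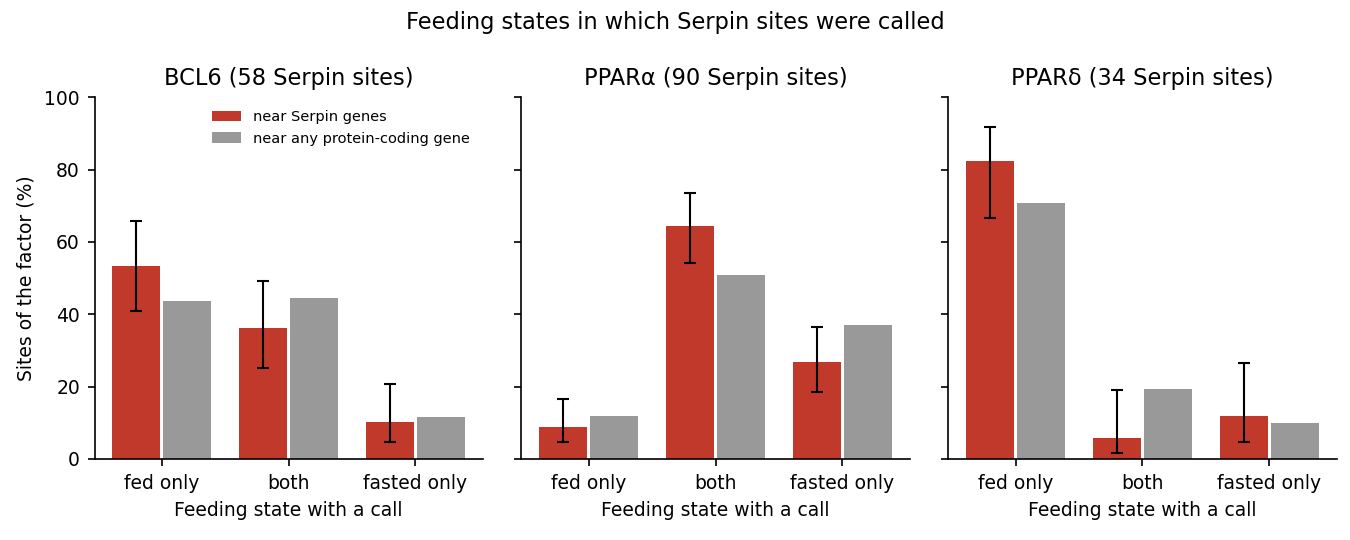
Percentage of the sites of each factor that were called in fed C57BL/6 livers only, in both states or in fasted livers only. Red bars are Serpin sites with 95% Wilson intervals and grey bars are all sites within reach of a protein-coding gene. Near Serpin genes 53.4% of BCL6 and 82.4% of PPARδ sites were fed only and 64.4% of PPARα sites were called in both states, whereas all BCL6 sites divided almost evenly between fed only (43.7%) and both (44.6%).

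The factors met at many of the same Serpin sites. Of the 58 BCL6 sites, 48 also held PPARα (82.8%, interval 71.1 to 90.4), beside 78.3% of all BCL6 sites. Of the 90 PPARα sites, 48 also held BCL6 (53.3%, interval 43.1 to 63.3), beside 38.7%. Of the 34 PPARδ sites, 25 also held PPARα (73.5%, interval 56.9 to 85.4, beside 85.6%) and 18 also held BCL6 (52.9%, beside 56.7%). All 3 factors met at 18 of the 109 Serpin sites called in C57BL/6 livers (16.5%, interval 10.7 to 24.6, beside 11.9% of all), and BCL6 met PPARδ without PPARα at none, beside 0.211% of all. PPARδ without BCL6 or PPARα was found at 9 Serpin sites (8.26%, interval 4.40 to 15.0), beside 2.85% of all sites. Of these 9, 5 lay near the α1-antitrypsin copies, at the places described above and at 10353 bp from Serpina1e.

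Promoters, taken as the 1000 bp before a TSS and the 100 bp after it, held 19 of the 116 Serpin sites (16.4%, beside 13.4% of all sites), each at a different gene. Every one was called for PPARα, 15 of them in fed and 18 in fasted livers, and 91.3% of all promoter sites held PPARα. BCL6 was called in a C57BL/6 list at 12 of the 19 Serpin promoter sites (63.2%, interval 41.0 to 80.9), beside 14.8% of all promoter sites. Away from promoters the shares were close, with BCL6 at 46 of 97 Serpin sites (47.4%) and 45.3% of all. The promoters with BCL6 in a C57BL/6 list were those of Serpina10, Serpina6, Serpina7, Serpina1b, Serpina1c, Serpina1d, Serpina3f, Serpina3k, Serpina3m, Serpinc1, Serpind1 and Serping1. Those without included the promoters of Serpina11, Serpina1e, Serpina3n, Serpinb6a, Serpinf1 and Serpinf2. The Bcl6 fl/fl list differed, with a BCL6 call at the Serpina11 promoter and none at those of Serpina1d, Serpinc1 and Serping1. As 8 of the 19 belong to copies of chromosome 12, the count was repeated without them and gave 6 of 11 (54.5%). PPARδ was called at 3 promoter sites (15.8%, beside 9.66%). This comparison was chosen after the sites were seen, and the sites are not independent of each other.

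Serpin sites also lay closer to a TSS, with a median distance of 5654 bp beside 12583 bp for all sites, and 72 of 116 were within 10 kb (62.1%, beside 44.8%). The distance a site can have from its nearest TSS depends on how closely genes are spaced. The 24 clade A genes, with 86 of the sites, share 0.944 Mb of nearest sequence, and all 21774 protein-coding genes share 1555 Mb. The part of gene spacing in the shorter distances was not tested. Within the annotation, 24 sites were in introns, 2 in exons and 71 outside the nearest gene and its promoter.

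The 2 fed BCL6 lists can be compared as separate experiments in livers with intact BCL6. Of 52 C57BL/6 peaks near Serpin genes 37 had a Bcl6 fl/fl peak within 200 bp (71.2%, beside 70.2% of all such peaks), and of 56 Bcl6 fl/fl peaks 37 had a C57BL/6 peak (66.1%, beside 60.4%). At 16 Serpin sites of 8 genes BCL6 was called in Bcl6 fl/fl livers and in neither C57BL/6 list, and 9 of these held PPARα. The share of such sites near all genes was not counted. These 2 lists share the feeding state, and the number of calls that differed between them near Serpin genes, 15 and 19, can be read beside the fed and fasted counts above.

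Recognition letters were found in a minority of sites. The BCL6 element was in 18 of 116 Serpin sites (15.5%, interval 10.0 to 23.2), beside 10.5% of all sites, and DR1 was in 11 (9.48%, interval 5.38 to 16.2), beside 13.1%. Of the 18 sites with a BCL6 element, 9 were called for BCL6 in a C57BL/6 list, 7 in the Bcl6 fl/fl list only and 2 in no BCL6 list. Among the 116 Serpin sites as a whole, 58 were called for BCL6 in a C57BL/6 list and 16 in the Bcl6 fl/fl list only. The share called in a C57BL/6 list was thus the same with and without regard to the element. Of the 11 sites with DR1, 10 were called for PPARα, and so were 90 of the 116 Serpin sites as a whole. These 10 lay near Serpina1a, Serpina5, Serpina6, Serpina11, Serpinb6b, Serpinb8, Serpinc1, Serpinf1 and Serping1. The remaining one, at -1223 bp from the Serpina6 TSS, was called for BCL6 in both fed lists only. By list, the BCL6 element was in 7 of 52 BCL6 fed windows (13.5%, beside 16.0% of all) and DR1 in 8 of 66 PPARα fed windows (12.1%, beside 13.9%). The BCL6 element was more frequent than among all windows in 4 lists. It was in 23.2% of Serpin windows of the Bcl6 fl/fl BCL6 list (interval 14.1 to 35.8, beside 16.1%) and 15.2% of those of the fed PPARα list (interval 8.44 to 25.7, beside 8.02%). In the fasted PPARα list it was in 12.2% (interval 6.76 to 21.0, beside 6.06%) and in the fed PPARδ list in 6 of 30 windows (interval 9.51 to 37.3%, beside 8.82%). These lists call many of the same sites. The DR1 share was below that of all windows in each of the 7 lists, and each interval included it. A match is a description of letters, and most called sites held neither.

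The partners of the serpins were counted in the same way, from a list of 18 proteases that serpins or their relatives act on and Agt, angiotensinogen, itself a serpin by sequence that does not carry the name. Of these 19 genes 15 had a site (78.9%, interval 56.7 to 91.5, beside 49.9% of all protein-coding genes), with 55 sites in all. Plg, the precursor of plasmin, had 8 sites, with peak counts of 3 for BCL6 fed, 2 for BCL6 fasted, 4 for BCL6 in Bcl6 fl/fl, 5 for PPARα fed, 7 for PPARα fasted, 2 for PPARδ fed and 1 for PPARδ fasted. F11, coagulation factor XI, had 7 sites, with 6 BCL6 peaks in fed and 1 in fasted livers and 6 and 5 PPARα peaks. Klkb1, plasma kallikrein, and Masp1, a protease of the lectin pathway of complement, had 6 sites each. Fed and fasted BCL6 peaks were 4 and 3 at Klkb1 and 3 and 1 at Masp1. Agt had 4 sites. The Plg site in intron 1 and the Agt site at -114 bp from its TSS were each called in all 7 lists. None of the 116 Serpin sites was, and of all sites near a gene only 1.59% were.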

How the data were processed

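ChIP-seq of BCL6, PPARα and PPARδ was analysed from 7 peak lists, each from 3 livers (21 samples of 59); the other samples were not analysed here. Per the study's methods, 75-base single-end reads were placed on mm10 by Bowtie, and the authors kept uniquely placed reads, limited to 1 for each start position. HOMER found peaks in the pooled replicates against input, and DESeq2 on the single libraries then retained those enriched at least 2-fold at the authors' false discovery threshold. The deposited positions carry no count, score or p-value, so depth and replicate error are unknown.

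TSSs were those of curated RefSeq transcripts on GRCm38 (26906, with 74 of Serpin genes). Peaks went to the nearest TSS within 100 kb, and centers within 200 bp were joined by single linkage. Unique 75-base stretches were counted over the whole genome. Windows of copies were aligned with Biopython 1.88 (global, free ends). Promoter windows were matched for 54 of the 63 genes. The functions were tested on simulated data. Every bound gene is named except 1, which is counted but not reported here by name, and the 12 with the most sites are described list by list. Members, role groups and lists were chosen with earlier results of these data known. Python 3.11.15, NumPy 2.4.6, SciPy 1.17.1, pysam 0.24.0, Numba 0.67.0 and Matplotlib 3.10.9 were used. Alternatives covered the reach, the TSSs, the joining distance, the BCL6 list and the element search.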

Additional observations from a re-analysis of the deposited data

How the results depend on the processing

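Of 94 values recomputed under an alternative, 90 stayed within the interval of a share or within 1.5 times a count. These covered a reach of 20 kb or 1 Mb, 1 TSS per gene, centers within 100 or 400 bp, the Bcl6 fl/fl list in place of the fed C57BL/6 BCL6 list, and matches in repeats left out. The other 4 all concerned the elements. In windows of 50 bp the BCL6 element was in 1.92% of fed BCL6 windows and DR1 in 6.06% of fed PPARα windows. With 1 mismatch fewer both shares were 0. Smaller windows and stricter letters admit fewer matches by construction. The BCL6 share of Serpin promoter sites, chosen with its alternatives after seeing the data, ran from 54.5% to 63.2%. With the Bcl6 fl/fl list it was 57.9%, beside 23.9% of all promoter sites.

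No paired analysis was possible because each list pools its replicates. Leaving out a replicate and a stricter peak threshold could not be run for the same reason and for want of scores.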
